A study of Mus musculus with 19 samples.

Results

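A group of 10 genes of the transforming growth factor beta (TGF-beta) pathway was followed through 6 lists of YAP and TEAD binding in mouse liver. The 10 members, of 22350 protein-coding genes on the numbered chromosomes and X, were the ligands Tgfb1 and Tgfb3, the receptors Tgfbr1, Tgfbr2 and Tgfbr3, and the signal transducers Smad2, Smad3, Smad4, Smad6 and Smad7. The rule lists them by name and uses no measured value, but they were chosen with earlier results of these data known. Shares of members beside shares of all genes are therefore descriptions, and no set test was run. Each was given a window made of its gene body and 20 kb on either side, in the GENCODE annotation of the mm9 (NCBIM37) assembly, and every peak that overlapped a window by at least 1 bp was taken.

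The lists came from chromatin immunoprecipitation followed by sequencing (ChIP-seq) on 19 liver samples of mice on a C57BL/6 background. All carried ROSA26-rtTA-IRES-EGFP, the doxycycline-dependent activator, and per the study's methods the mice were crossed with an albumin-driven Cre line, a driver used to reach hepatocytes. WT livers had no YAP transgene and received doxycycline food for 7 days. Induced livers also carried tetYAP, which per the methods encodes the constitutively active YAP S127A, and received doxycycline for 3 days (3 d) or 7 days (7 d). Livers were whole tissue, so a peak cannot be placed in 1 cell type. The peak lists hold no expression values, so neither the tissue nor the transgene was checked against marker genes here. YAP, a coactivator without a DNA-binding domain, and TEAD, the transcription factor through which it reaches DNA, were each precipitated in all 3 conditions. The TEAD antibody was raised against TEAD4 and per the methods also recognises TEAD1 and TEAD3. Each group had 3 samples, except TEAD at 7 d with 4, and the authors merged the samples of a group before calling peaks. Each group is therefore 1 list, no difference between conditions has a replicate check, and no p-value is given.

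TGF-beta ligands are secreted in latent form and, once released, bind a complex of the type II receptor Tgfbr2 and the type I receptor Tgfbr1, with Tgfbr3 (betaglycan) as a co-receptor that presents the ligand. The active type I receptor phosphorylates Smad2 and Smad3, which join Smad4 and bind regulatory DNA in the nucleus. Smad6 and Smad7 inhibit signalling in the wider TGF-beta family and are themselves targets of it, as negative feedback. In the liver the pathway is known for restraining hepatocyte proliferation and for driving fibrosis.

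TEAD peaks numbered 5695 in the WT list, 36446 in the 3 d list and 38984 in the 7 d list, and YAP peaks 156, 110 and 1478. The merged libraries held between 34260362 and 55032002 tags. Pileup, the number of extended fragments over a peak's summit, depends on the fragment length set in the peak caller. Per the file headers this was 400 bp for TEAD in WT livers, 207 bp at 3 d, 206 bp at 7 d and 250 bp for the 3 YAP lists. TEAD pileups of WT and induced livers were therefore compared only as ranks within their own list, with rank 1 the highest. Fold enrichment is the pileup over the local background of the control library. It rests on the same pileup, so it is given for every list but not compared between the WT and induced TEAD lists.

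All 10 windows held a TEAD peak after induction, and most of the peaks lay at Smad6, Smad7, Smad3 and Tgfbr3. The 10 windows contained 11 TEAD peaks of the WT list, 50 of the 3 d list and 59 of the 7 d list. Of the 59 peaks at 7 d, 40 belonged to these 4 genes. In WT livers 6 members had a TEAD peak, against 25.4% of all genes. At 3 d and at 7 d 10 of 10 had one, against 65.3% and 66.5% of all genes. With no flank, 7 members had one at 3 d and 9 at 7 d, and with at least 5-fold enrichment 7 and 10. The shares of all genes were not recomputed for these settings. TEAD peaks were more numerous at 3 d than in WT livers for 9 members, all but Smad4, and for 62.2% of all genes. They were more numerous at 7 d than in WT livers for 10 members and for 63.6% of all genes. A gain of called peaks was thus common to most genes. The lists had different limits, however. The lowest TEAD pileup listed per 1000000 tags was 0.682 in the WT list, 0.363 at 3 d and 0.415 at 7 d. These limits also rest on the differing fragment lengths, and how much of the gain they set was not tested. A peak absent from the WT list is therefore not shown to be newly bound. When each TEAD list was held to the 5695 peaks with its highest −log10 p-values, which takes away the gain in list length by construction, the member windows held 11, 9 and 7 peaks and 6, 5 and 4 members had one.

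Longer windows held a peak more often, and 7 of the 10 member windows were 100 kb or longer. Among the 4079 genes with windows of 100 kb or longer, 36.1% had a TEAD peak in WT livers and 79.1% at 7 d, beside 4 and 7 of the 7 members of that length. Per 100 kb, the member windows held 0.988 TEAD peaks of the WT list, 4.49 of the 3 d list and 5.30 of the 7 d list. All gene windows together held 0.332, 2.16 and 2.27.

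**Figure D1:**
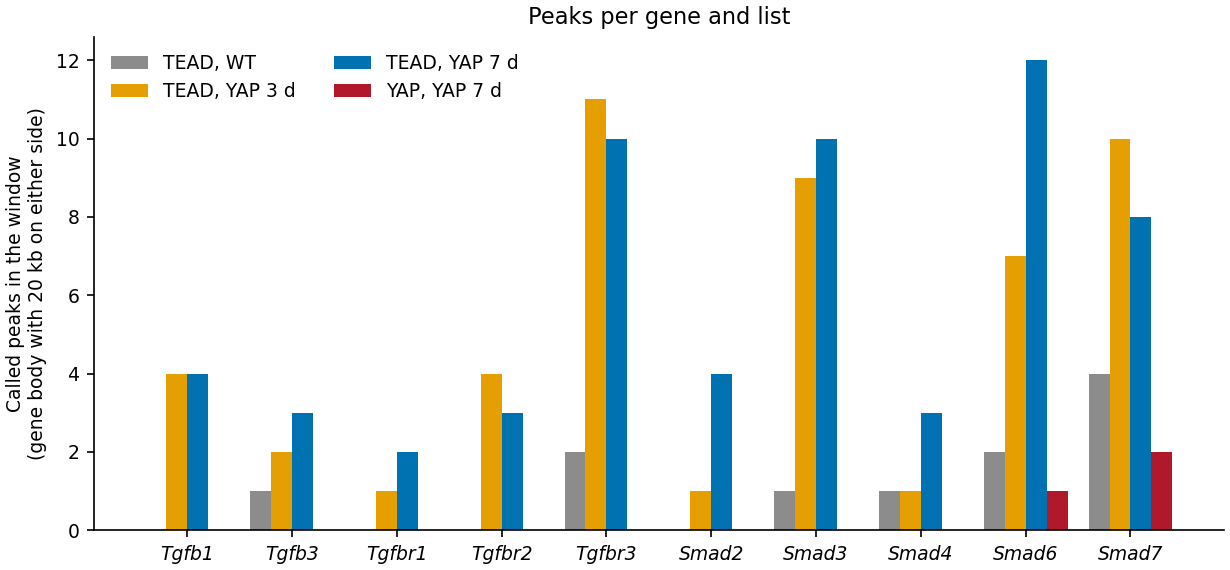
The bars give the number of called peaks in the window of each gene, with the WT TEAD list in grey, TEAD at 3 d in orange, TEAD at 7 d in blue and YAP at 7 d in red. Smad6 reaches 12 TEAD peaks at 7 d, and only Smad6 and Smad7 have a red bar. The YAP lists of WT livers and 3 d have no peak in any window and are not drawn.

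In the windows with 20 kb on either side, YAP peaks were listed at the 2 inhibitory SMADs. The one at Smad6 (fold enrichment 4.69, −log10 p-value 9.93) was lost when at least 5-fold enrichment or a −log10 p-value of at least 10 was required, which left Smad7 as the 1 member with a YAP peak. No window contained a YAP peak of the WT list (0 peaks) or of the 3 d list (0), and 3 peaks of the 7 d list were found, 1 at Smad6 and 2 at Smad7. This depended on the flank, since with 50 kb on either side 4 YAP peaks were counted at 7 d, at 3 members. The share of all genes with a YAP peak in the window was 0.139% (WT), 0.192% (3 d) and 6.34% (7 d), so a count of 0 of 10 members in the first 2 lists is near the background. At 7 d the members' count was 2 of 10. Among genes with windows of 100 kb or longer the share at 7 d was 12.4%, beside 1 of the 7 members of that length. Among genes with shorter windows it was 4.99%, beside 1 of 3 members. All 3 YAP peaks overlapped a TEAD peak in each of the 3 TEAD lists. The lowest YAP pileup listed at 7 d was 0.525 per 1000000 tags, and the members' 3 YAP peaks had 0.730, 0.876 and 0.934. They were thus not far above the lowest pileup listed. Beside the list medians (pileup 29, fold enrichment 5.72), the Smad6 peak stood lower, at 25 and 4.69. Both Smad7 peaks stood higher, at 30 and 6.55 and at 32 and 6.78. A gene without a YAP peak has no pileup in these files, which is not the same as no binding.

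Runs of overlapping TEAD peaks from the 3 lists were joined into sites, 69 in the member windows and 47146 in the genome. Of the 69 sites, 11 were called in all 3 lists (15.9%, against 11.4% of all sites). A further 28 were called at 3 d and 7 d but not in WT livers, 11 at 3 d only and 19 at 7 d only. None was called in WT livers alone. Sites of all 3 lists belonged to Smad7 (4), Smad6 (2), Tgfbr3 (2), Tgfb3, Smad3 and Smad4 (1 each). A YAP peak at 7 d overlapped 3 of the 69 member sites and 2.96% of all sites. Each of these 3 was among the 11 sites of all 3 lists, of which 14.0% had a YAP peak genome-wide.

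**Figure D2:**
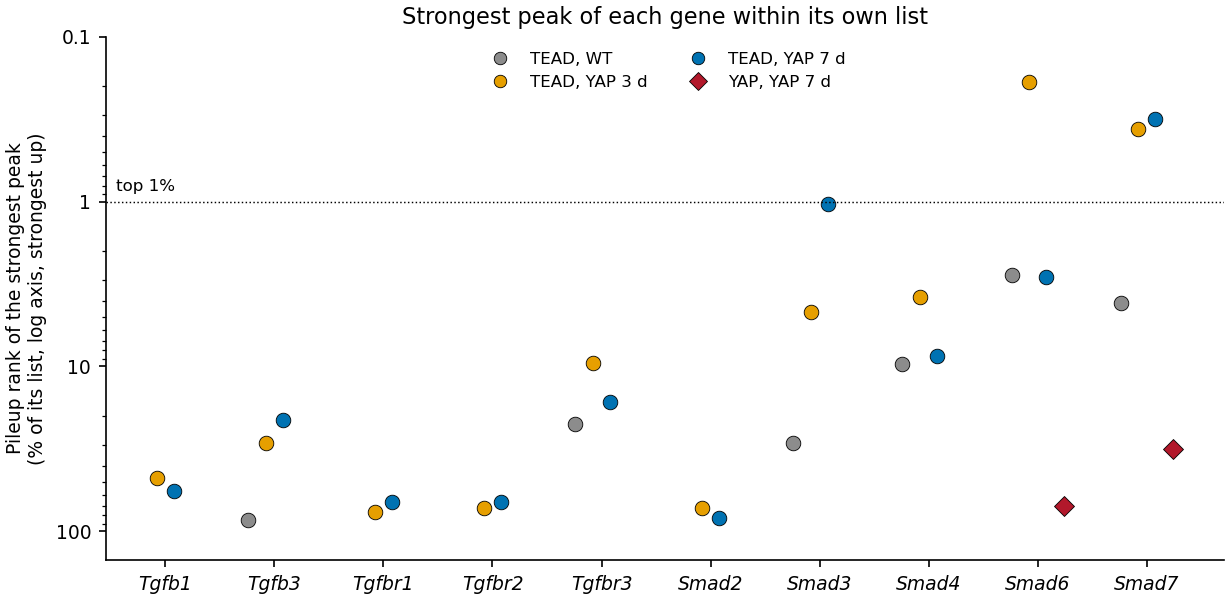
Each point is the strongest peak of a gene in 1 list, placed by its pileup rank as a percentage of that list on a log axis with the strongest at the top. Colours are as in the plot of peak counts. Smad6 at 3 d (0.189%) and Smad7 at 3 d (0.362%) and 7 d (0.316%) lie in the top 1%, and Smad3 at 7 d (1.03%) just outside. The ligands, Tgfbr1, Tgfbr2 and Smad2 stay below the top 20% in every list.

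At the ligands no TEAD peak reached the top 20% of its list, and the strongest lay in or nearest to neighbouring genes. Tgfb1 (chromosome 7, 26472021 to 26490096) had 0 TEAD peaks in the WT list, 4 in the 3 d list and 4 in the 7 d list. None lay in the gene or within 2000 bp upstream of its start. The nearest coding starts were those of its neighbours Tmem91, B9d2 and Ccdc97, and the strongest peak at 7 d (rank 22351) lay inside Ccdc97. The window therefore credits Tgfb1 with peaks that lie nearer to, or inside, other genes.

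Tgfb3 (chromosome 12, 87397694 to 87419991) had 1, 2 and 3 TEAD peaks in the same order. Its strongest site, 12.6 kb upstream, was called in all 3 lists with ranks of 4862 in the WT list, 10693 at 3 d and 8310 at 7 d. This site lay within a neighbouring gene, 1700019E19Rik, whose start was also the nearest. At the Tgfb3 promoter itself a weaker peak, 506 bp upstream of the start at 7 d, had a pileup of 33 at both 3 d and 7 d, with ranks of 20581 and 19452.

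Both signalling receptors carried only weak peaks, listed at 3 d and 7 d and not in the WT list. Whether the limit of the WT list set this was not tested. Tgfbr1 (chromosome 4, 47366094 to 47427803) had 0, 1 and 2 TEAD peaks, all at its promoter. At 3 d the peak lay 682 bp into the gene with a fold enrichment of 4.60. At 7 d a peak in the same place had 5.89, and a second, 614 bp upstream of the start, had 6.36. Tgfbr2 (chromosome 9, 115993415 to 116084383) had 0, 4 and 3 peaks, and none overlapped its promoter, taken as the stretch from 2000 bp before to 1000 bp after any annotated start. Its strongest peak was in an annotated untranslated region 87.1 kb from the start at 3 d (rank 26433) and in an intron 1.99 kb from the start at 7 d (rank 26083). Their fold enrichments of 4.67 and 6.36 were below the list medians of 5.44 and 7.30.

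Tgfbr3, the co-receptor, had the longest gene body of the 10 (chromosome 5, 107535589 to 107718648) and 2, 11 and 10 TEAD peaks, most of them in introns. The strongest site of the WT list lay in an intron 122 kb from the start, with ranks of 1280 (WT), 3457 (3 d) and 9663 (7 d). A second site of all 3 lists, 55.6 kb from the start, had ranks of 4602, 3457 and 8310, level with the first at 3 d. Both sites stood further down the list at 7 d than at 3 d. The strongest peak at 7 d was instead an intronic site 72.3 kb from the start that was called in no other list, with a pileup of 66, a rank of 6435 and a fold enrichment of 15.6. Around its summit the genome holds the TEAD recognition sequence GGAATG in both orientations, shown because the pair spans the summit of a peak listed at 7 d only. In the 101 bases of mm9 given below on the plus strand (chr5:107646270-107646370), capitals mark the matches, and the summit lies within the second of them and 13 bp from the first.
Tgfbr3, 72.3 kb: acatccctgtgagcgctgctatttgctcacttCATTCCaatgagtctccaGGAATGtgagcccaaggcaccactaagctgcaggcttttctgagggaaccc

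Among the receptor-activated SMADs, Smad3 had 1, 9 and 10 TEAD peaks (chromosome 9, 63494574 to 63605801) and both of its main sites ranked higher at 7 d than at 3 d. The strongest site lay in an intron 101 kb from the start and was called in all 3 lists. Its rank was 1669 in the WT list, 1716 at 3 d and 400 at 7 d, and its fold enrichment 6.25, 17.1 and 41.2. A second intronic site, 52.4 kb from the start, was not called in WT livers and moved from rank 9400 at 3 d to rank 1831 at 7 d, with fold enrichments of 8.04 and 28.3. Weaker peaks marked the promoters. One lay 149 bp upstream of the start at 7 d (rank 34059) and one 929 bp downstream of it (rank 14618). Another, with its summit 7.15 kb into the gene, lay 236 bp downstream of an alternative start (rank 7379). None of the Smad3 peaks overlapped a YAP peak.

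That absence can be set beside the rest of the list. Of the TEAD peaks at 7 d in the top 1% of the list, 74.0% overlapped a YAP peak, and of those in the next 1% to 5%, 37.3%. The Smad3 peak of rank 400 lay just outside the top 1%, whose last rank was 389. Of the 4 member peaks in the 1% to 5% class, those of Smad6 and of the upstream Smad7 site overlapped a YAP peak and both Smad3 peaks did not. Each Smad3 summit has 1 TEAD sequence nearby. The 101 bases around both summits are given on the plus strand of mm9 (chr9:63505147-63505247 and chr9:63553335-63553435), with the match in capitals, because these are the strongest member sites without a YAP peak. The match lies 15 bp from the summit in the first and 11 bp in the second.
Smad3, 101 kb: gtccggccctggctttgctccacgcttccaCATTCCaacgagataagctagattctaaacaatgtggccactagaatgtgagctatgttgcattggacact
Smad3, 52.4 kb: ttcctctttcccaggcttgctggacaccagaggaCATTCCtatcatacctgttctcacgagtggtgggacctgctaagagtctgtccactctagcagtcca

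Smad2, the other receptor-activated SMAD (chromosome 18, 76401234 to 76465385), stood in contrast, with 0, 1 and 4 TEAD peaks. The single peak at 3 d lay in an intron 22.5 kb from the start (rank 26433). The 4 peaks at 7 d were at other positions, with ranks from 32442 to 36909, and included one 119 bp upstream of the start with a pileup of 20. The lowest pileup listed at 7 d was 16, so these peaks were near the limit of the list, and no Smad2 site was called in more than 1 list.

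Smad4, the partner of both (chromosome 18, 73798663 to 73863434), had 1, 1 and 3 TEAD peaks, and its main peak lay at its promoter in every list. The summit was 429 bp upstream of the start in WT livers, 474 bp at 3 d and 478 bp at 7 d. Fold enrichments were 9.04, 19.2 and 21.9, and ranks 550, 1378 and 3355. It was the strongest promoter peak of the 10 genes in each list, and the only promoter peak of a member in WT livers. No YAP peak overlapped it.

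The inhibitory SMADs had the 3 YAP peaks of the 10 windows and, at 3 d, the strongest TEAD peaks. Per 100 kb of window, Smad7 had 5.85, 14.6 and 11.7 TEAD peaks in the WT, 3 d and 7 d lists, more than any other member in each. Smad6 followed with 1.84 and 11 in the WT and 7 d lists, while at 3 d its 6.43 stood just under the 6.89 of Tgfb1. Smad6 and Smad7 each had a peak in the top 1% of the TEAD list at 3 d, as did 2.13% of all genes. At 7 d Smad7 alone had one, against 1.83% of all genes. The maps of fold enrichment along the 4 genes with the most TEAD peaks show the tallest site in an intron at each of the 4. At 7 d the next tallest reached 29.4 at Smad7, upstream of the start, and 28.3 at Smad3, in an intron. The tallest site of Tgfbr3 was lower, at 15.6.

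**Figure D3:**
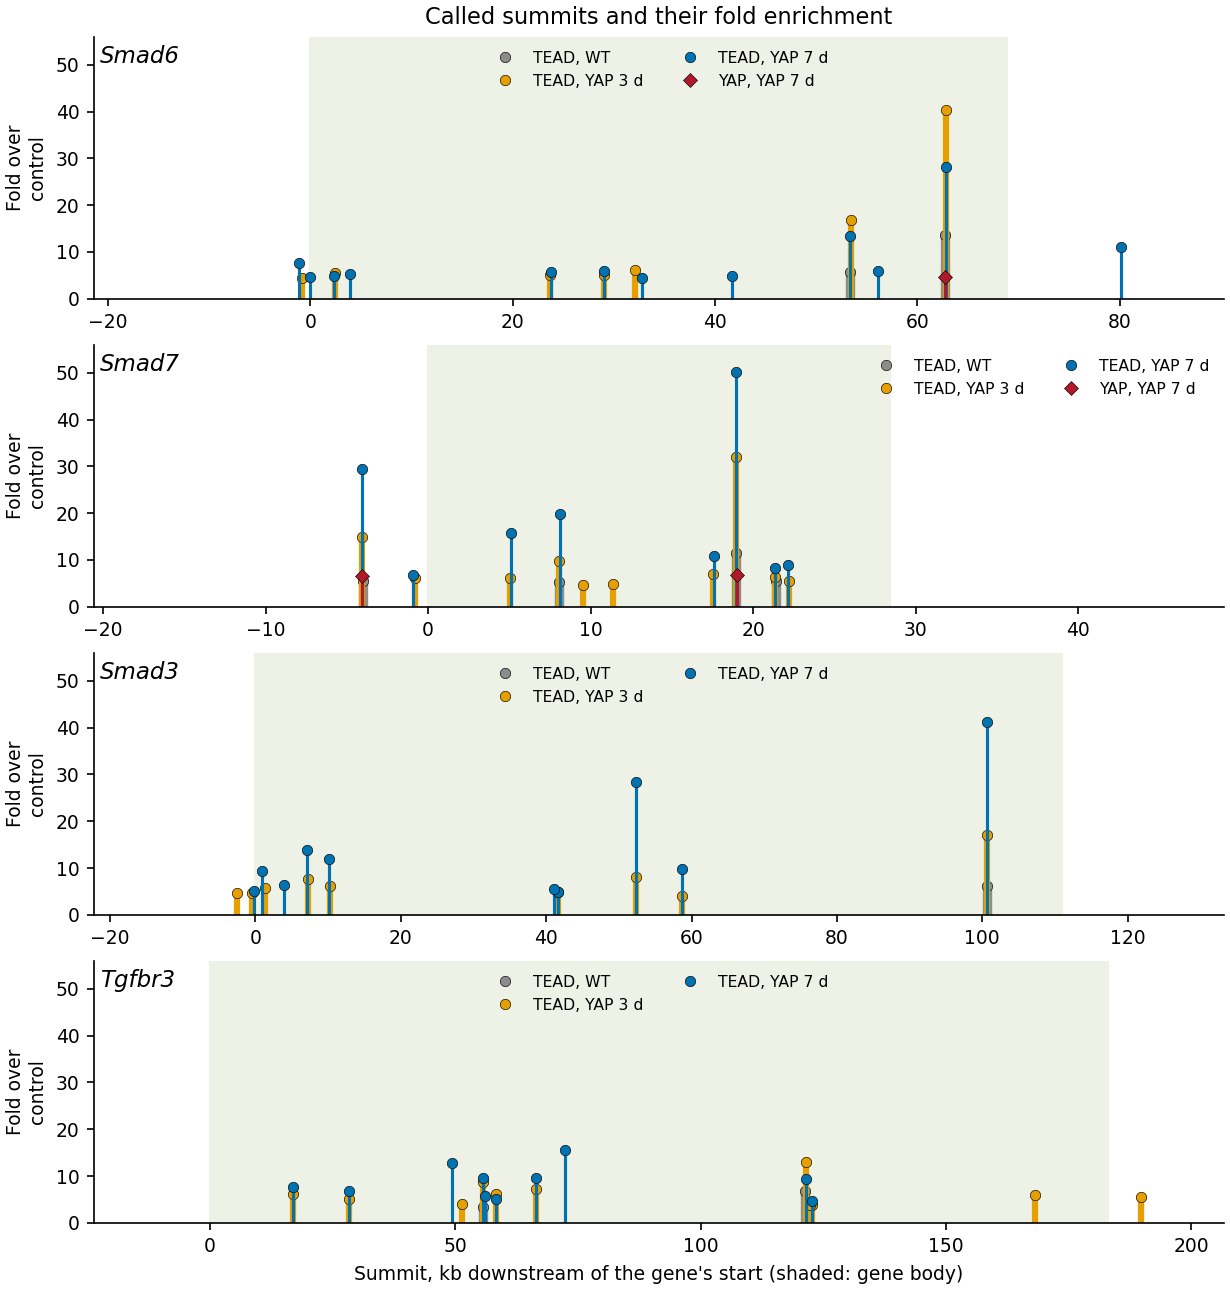
Each stem is a called peak at its summit, in kb downstream of the gene's start, with its fold enrichment as height, for Smad6, Smad7, Smad3 and Tgfbr3. Grey, orange and blue stand for the WT, 3 d and 7 d TEAD lists, red diamonds for YAP at 7 d, and the shaded band for the gene body. Heights of grey stems are not to be compared with orange and blue ones, because the fragment lengths differ. Fold enrichment reaches 40.4 at Smad6 (3 d), 50.2 at Smad7 and 41.2 at Smad3 (7 d), against 15.6 at Tgfbr3, and the red diamonds sit on the tallest sites of Smad6 and Smad7.

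Smad6 (chromosome 9, 63800953 to 63869866) had 2, 7 and 12 TEAD peaks, and its strongest site lay in an intron 62.8 kb from the start. There TEAD had rank 160 (WT), rank 69 (3 d) and rank 1110 (7 d), with fold enrichments of 13.7, 40.4 and 28.2. The site was thus among the strongest of the genome at 3 d and less so at 7 d, when the YAP peak was first listed. That YAP peak had a pileup of 25, rank 1041 of 1478 and a fold enrichment of 4.69, below the list median of 5.72. A second site of all 3 lists, 53.4 kb from the start, had TEAD ranks of 2181, 1378 and 6120 and no YAP peak. At the promoter, weak TEAD peaks lay 803 bp upstream of the start at 3 d (rank 29694), and 53 bp and 1158 bp upstream of it at 7 d (ranks 36909 and 20356). The whole YAP peak is given below on the plus strand of mm9 (chr9:63806940-63807218, 279 bases), since it is the one YAP-bound sequence at Smad6. It holds 1 TEAD match, in capitals, 3 bp from the TEAD summit at 7 d and 27 bp from the YAP summit.
Smad6, 62.8 kb: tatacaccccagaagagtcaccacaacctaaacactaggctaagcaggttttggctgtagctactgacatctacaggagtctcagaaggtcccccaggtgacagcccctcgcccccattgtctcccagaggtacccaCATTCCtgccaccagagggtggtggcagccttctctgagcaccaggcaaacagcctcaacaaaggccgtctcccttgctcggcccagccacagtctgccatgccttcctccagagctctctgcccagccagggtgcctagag

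Smad7 (chromosome 18, 75527183 to 75555589) had 4, 10 and 8 TEAD peaks, and 2 of its sites had a YAP peak. The strongest lay in an intron 19.0 kb from the start. Its TEAD rank was 235 in the WT list, 132 at 3 d and 123 at 7 d, with fold enrichments of 11.4, 32.1 and 50.2. The YAP peak there had a pileup of 32, rank 470 and a fold enrichment of 6.78. The second YAP-bound site lay 4.08 kb upstream of the start, with TEAD ranks of 2514, 2551 and 1646 and a YAP peak of pileup 30, rank 588 and fold enrichment 6.55. GGAATG was found within 50 bp of the summit at the intronic site and not at the upstream one. The other 2 sites of all 3 lists, 8.09 kb and 21.3 kb into the gene, had no YAP peak. A promoter peak was listed 799 bp upstream of the start at 3 d and 948 bp upstream at 7 d, with ranks of 15572 and 23532.

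The gene Ctgf (Ccn2), which is no member but a long-established YAP target, gave a scale for these values. Its promoter peak had TEAD ranks of 292 (WT), 62 (3 d) and 93 (7 d) and a YAP rank of 99 at 7 d, with a YAP fold enrichment of 10.5. The TEAD ranks of the main Smad7 site were of the same order as those of Ctgf in all 3 lists, whereas its YAP peak ranked further down, at 470.

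TEAD pileup at 3 d and 7 d could be compared directly, since the fragment lengths were 207 and 206 bp, by dividing it by the tags of each merged library. Of the sites called at both times, 39 lay in member windows and 27137 in all. The ratio of 7 d to 3 d had a median of 1.28 over the member sites and 1.33 over all shared sites, so most shared sites of the genome were higher at 7 d and a ratio is read against 1.33. Over 1.5-fold higher at 7 d were 16 of the 39 member sites, against 34.3% of all shared sites, and 0 of the 39 were over 1.5-fold lower, against 0.733%. After division by the genome-wide median, 4 member sites were over 1.5-fold higher and 4 over 1.5-fold lower.

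Individual sites departed from this median in both directions. At Smad3, 6 of 8 shared sites were over 1.5-fold higher at 7 d, and 3 of 8 after division by the median. The 101 kb site went from 1.94 to 4.93 per 1000000 tags, a ratio of 2.54 (95% interval 1.99 to 3.25) at percentile 95.4 of all shared sites. The 52.4 kb site went from 0.890 to 3.11, a ratio of 3.50 (2.49 to 4.98), which lay at the 98.6th percentile of all shared sites. At Smad7, 6 of 8 shared sites were over 1.5-fold higher, but 1 of 8 after division by the median. Its main intronic site went from 4.03 to 6.31 (ratio 1.56, 1.30 to 1.88), at percentile 70.4 and with the genome-wide median inside its interval. The upstream Smad7 site went from 1.65 to 3.24 (ratio 1.96, 1.49 to 2.60), at percentile 88.1. At Smad6, by contrast, 5 of 6 shared sites lay below the genome-wide median, and 3 of 6 were over 1.5-fold lower after division by it. The main Smad6 site went from 4.60 to 3.71 (ratio 0.807, 0.653 to 0.995), at percentile 3.35 of all shared sites, and the 53.4 kb site from 2.13 to 1.77 (ratio 0.830, 0.606 to 1.13). The genome-wide median lay above both of these intervals and inside those of the other shared Smad6 sites. All 7 shared sites of Tgfbr3 lay below the genome-wide median, with ratios from 0.927 to 1.32. The median was inside or at the edge of each of their intervals, and none was over 1.5-fold lower after division by it. At the Smad4 promoter the ratio was 1.14 (0.855 to 1.5). The intervals are exact binomial intervals of the 2 pileups. They cover counting error only, and say nothing of the spread between livers.

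**Figure D4:**
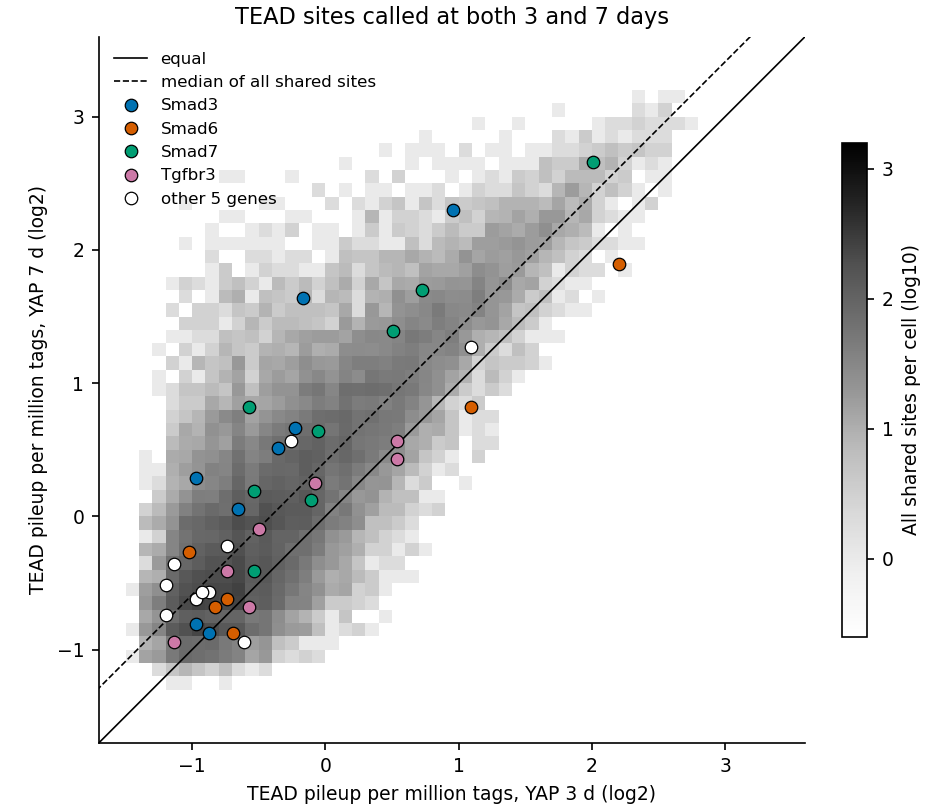
Each circle is a member site called at both times, placed by its TEAD pileup per 1000000 tags at 3 d (horizontal) and 7 d (vertical), both in log2. The grey cells count all 27137 shared sites, the solid line marks equal values and the dashed line the median ratio of 1.33. The 2 strongest Smad6 sites lie below the solid line at ratios of 0.807 and 0.830, and the 2 strongest Smad3 sites well above the dashed line at 2.54 and 3.50.

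The summits of the member peaks were searched on both strands for 5 short sequences within 50 bp. GGAATG, the TEAD recognition sequence, was found at 24 of the 59 member summits at 7 d (40.7%), against 27.7% of all summits of that list. Within 25 bp the shares were 18.6% and 18.8%, close to each other at this narrower window. Among Smad6 summits 7 of 12 had a match. TGANTCA, bound by AP-1, was found at 0 of 59 summits against 4.85% of all. CAAAGTCCA, bound by the hepatocyte factor HNF4A, was found at 0 against 0.953%. TGTTTAC, bound by FOXA factors, was found at 2 (3.39% against 3.16%). CAGACA, which contains the core bound by SMAD proteins, was found at 4 (6.78% against 8.83%), 1 at Tgfb3, 1 at Tgfbr1 and 2 at Tgfbr3. At the strongest peaks of Tgfb1, Tgfb3, Tgfbr1 and Tgfbr2 at 7 d no TEAD match lay within 50 bp of the summit. The 101 bases around that Tgfb3 summit (plus strand, mm9 chr12:87432509-87432609) are given as a TEAD peak of all 3 lists whose summit has none of the 5 sequences.
Tgfb3, 12.6 kb upstream: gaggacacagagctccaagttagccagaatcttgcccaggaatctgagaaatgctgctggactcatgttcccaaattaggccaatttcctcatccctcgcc

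The wider pathway was examined through 48 other genes of TGF-beta, activin and bone morphogenetic protein (BMP) signalling, all matched in the annotation. TEAD peaks lay in the windows of 19 of the 48 in the WT list (39.6%), 40 at 3 d (83.3%) and 42 at 7 d (87.5%), where the shares of all genes were 25.4%, 65.3% and 66.5%. Some of these windows were long, such as those of Ltbp1 (427 kb) and Bmpr1b (372 kb). Among all genes with windows of 100 kb or longer the shares were 36.1%, 76.3% and 79.1%. The neighbours Inhbc and Inhbe also shared their strongest peaks at 3 d and 7 d. YAP peaks lay in the windows of 0 in the WT list, 0 at 3 d and 2 at 7 d (4.17%, against 6.34% of all genes). These 2 were Itgb6, a subunit of an integrin that activates latent TGF-beta, and Smurf2, a ubiquitin ligase that SMAD7 brings to the receptors. The Itgb6 YAP peak lay in an intron 24.4 kb from the start with rank 301 and a fold enrichment of 7.31. The TEAD peak beneath it had rank 262 at 7 d. The strongest TEAD peak in the Itgb6 window at 3 d had rank 4188, at almost the same position. The Smurf2 YAP peak, 7.30 kb upstream of the start, had rank 1249 and a fold enrichment of 5.02, and the TEAD ranks there were 901 (WT), 1053 (3 d) and 1089 (7 d).

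Beside Itgb6 and Smurf2, the 5 highest TEAD pileups among the 48 genes at 7 d belonged to Id3, Gdf15 and Ski. The Id3 window, around a target gene of BMP signalling, had 5, 10 and 8 TEAD peaks and a best rank of 1019 at 7 d. Gdf15, which encodes a stress-induced secreted factor of the family, had 1, 6 and 6 peaks and a best rank of 1204. Ski, a corepressor that binds SMAD proteins, had 7, 13 and 14 peaks and a best rank of 1612. None of the 3 had a YAP peak. YAP peaks in the windows of the 58 genes examined, the 10 members and the 48 others, thus lay at Smad6, Smad7, Itgb6 and Smurf2. Each of the 5 peaks coincided with a TEAD peak at 7 d.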

How the data were processed

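Binding of YAP and TEAD was measured by ChIP-seq in liver. The authors masked low-quality bases, aligned reads to mm9 with BWA 0.6.2, merged the replicates of each group, removed duplicates and called peaks with MACS2 (2.0.9) at a p-value cutoff of 1e-05 against a control library of 167176362 tags, common to all 6 lists and, per the study's methods, taken from published data. In the deposited lists, pileup is a signal (coverage at the summit), fold enrichment a ratio to local background, and significance the −log10 p-value and −log10 q-value of the caller. The q-values were not used.

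The 10 members, the list of 48 pathway genes and the motifs were chosen with earlier results of these data known. Named were all members with their strongest and promoter peaks, every YAP peak, pathway genes with a YAP peak or among the 5 highest TEAD pileups, and Ctgf. Windows, ranks, sites, ratios and motif matches were computed with Python 3.11.15, NumPy 2.4.6 and SciPy 1.17.1 from GENCODE and the NCBIM37 sequence, and the code was tested on simulated data. Tied pileups share the best rank. No peak of 82869 passed the end of its chromosome, and 141 lay on unplaced sequences. Alternatives covered the window, peak thresholds, rank measure, overlap rule, scaling and motif window.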

Additional observations from a re-analysis of the deposited data

How the results depend on the processing

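No paired analysis was possible because each group was deposited as 1 list of its merged samples, and for the same reason no replicate could be left out. Of 84 recomputed ranks of strongest peaks (by fold enrichment, by −log10 p-value, or on numbered chromosomes and X), 84 stayed within 1.5 times the reported rank. Of 84 recomputed counts of peaks and of members with a peak, 77 did so. Many of these outcomes had little or no room to move. The counts include those of the WT and 3 d YAP lists, which were 0 and which a stricter filter cannot change. Of the ranks, 28 only left out peaks off the numbered chromosomes and X, and the others used measures that rest on the same pileup. Keeping peaks of at least 5-fold enrichment left 31 TEAD peaks at 3 d and 1 member with a YAP peak at 7 d, and a −log10 p-value of at least 10 also left 1 (Smad7). Windows with 50 kb on either side gave 3 members with a YAP peak at 7 d. With each TEAD list held to the length of the WT list, the windows held 9 peaks at 3 d and 7 at 7 d, with 5 and 4 members having one. The sites called in all 3 lists were then 6, those of 3 d and 7 d only 0 and those of 3 d only 0. Sites of 7 d only were 1 and those of WT only 2. Fewer peaks were compared in this setting, and what set these patterns was not tested. Scaling the 7 d to 3 d ratio by its genome-wide median left 4 member sites over 1.5-fold higher and 4 over 1.5-fold lower. Searching 25 bp around summits in place of 50 left 11 member summits with the TEAD sequence. Members without a YAP peak have no YAP value in these lists, and whether depth set that was not tested.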
